A study of Mus musculus with 9 samples.

Results

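The 4 mouse Mef2 genes, Mef2a, Mef2b, Mef2c and Mef2d, were examined as targets of the muscle transcription factor MyoD1. A locus was the GENCODE vM21 gene body with 10 kb on each side on mm10, and a peak of any of 6 lists counted where it overlapped that interval. By this rule 64 of 116126 peaks belonged to the 4 loci. After overlapping or touching peaks of all lists were merged, they formed 25 of 58309 regions, of which 2 were at Mef2a, 12 at Mef2b, 1 at Mef2c and 10 at Mef2d.

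MyoD1 occupancy was mapped by CUT and RUN, in which an antibody directs micrococcal nuclease to a chromatin protein and the released DNA is sequenced. The cells were C2C12, a mouse skeletal myoblast line, carrying an N-terminal 3xFlag-Halo tag at the endogenous Myod1 gene and an additional 3xFlag-Halo-MyoD1 transgene under a doxycycline (dox) inducible TRE3GS promoter. All cells were induced to differentiate by serum withdrawal for 6 h, either untreated (no dox, 3 biological replicates) or with dox from the start (+dox, 3 biological replicates), and MyoD1 was recovered with an anti-Flag antibody. The comparison asks where MyoD1 was called at endogenous levels and where it was called once its amount was raised.

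Both groups carried the tag and the transgene, so they differed by dox, and a dox effect apart from the transgene cannot be told apart from that of added MyoD1. The edited line descended from a single-cell clone. The series also has 3 wild-type libraries from untagged C2C12. They were not analysed here, and the antibody's background is not among the values given. Expression was not measured in these libraries, and the cell type label could not be checked against marker genes. A smaller peak from fewer cells with bound MyoD1 and one from less MyoD1 per cell cannot be told apart in bulk material.

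Mef2 proteins are MADS-box transcription factors that bind an A/T-rich motif and act with MyoD1 and its relatives at muscle genes. They drive contractile and metabolic genes in skeletal and cardiac muscle, and class IIa histone deacetylases hold them inactive until calcium and MAP kinase signals release them. Mef2c is switched on as myoblasts differentiate, Mef2a and Mef2d are expressed widely, and Mef2b is the most divergent member, best known from B cells. MyoD1 itself binds E-boxes, CANNTG, with a preference for CAGCTG.

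The maximum of each region was placed at a middle value of those of its libraries. The sequences around these maxima are given to show which E-boxes, if any, lay there. Those printed are the most widely called region of each locus, the regions at the own starts of Mef2b and Mef2d, and the other Mef2d region called in every library. They are mm10 plus-strand sequence of the bases around the maximum, without annotated exons, in lower case with each CANNTG in capitals.
Mef2a, 0.6 kb upstream of the gene, chr7:67373376-67373575: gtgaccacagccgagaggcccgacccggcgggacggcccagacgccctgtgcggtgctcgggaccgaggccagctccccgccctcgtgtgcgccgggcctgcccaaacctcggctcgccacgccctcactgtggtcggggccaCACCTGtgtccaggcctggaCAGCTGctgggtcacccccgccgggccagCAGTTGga
Mef2b, upstream of its outermost start, chr8:70139176-70139375: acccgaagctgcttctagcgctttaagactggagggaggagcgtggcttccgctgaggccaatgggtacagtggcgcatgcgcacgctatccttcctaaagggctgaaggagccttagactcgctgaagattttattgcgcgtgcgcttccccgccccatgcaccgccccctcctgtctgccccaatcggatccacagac
Mef2b, at its inner start, chr8:70152651-70152777: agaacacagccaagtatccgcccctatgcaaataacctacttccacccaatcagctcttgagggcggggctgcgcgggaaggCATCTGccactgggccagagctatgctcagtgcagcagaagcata
Mef2c, intronic, chr13:83652126-83652325: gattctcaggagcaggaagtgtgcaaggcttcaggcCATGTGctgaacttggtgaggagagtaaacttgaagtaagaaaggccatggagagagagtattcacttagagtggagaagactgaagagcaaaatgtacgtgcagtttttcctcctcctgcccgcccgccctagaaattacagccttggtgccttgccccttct
Mef2d, 3.6 kb upstream of the gene, chr3:88138676-88138875: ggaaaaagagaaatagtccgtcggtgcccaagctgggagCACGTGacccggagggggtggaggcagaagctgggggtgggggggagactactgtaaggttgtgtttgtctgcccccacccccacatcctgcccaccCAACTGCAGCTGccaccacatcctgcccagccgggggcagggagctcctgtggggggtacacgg
Mef2d, at its start, chr3:88142201-88142371: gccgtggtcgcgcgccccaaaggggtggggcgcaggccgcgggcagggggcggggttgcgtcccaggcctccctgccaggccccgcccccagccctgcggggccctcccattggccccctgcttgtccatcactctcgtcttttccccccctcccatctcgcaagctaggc
Mef2d, past the 3′ end, chr3:88177786-88177975: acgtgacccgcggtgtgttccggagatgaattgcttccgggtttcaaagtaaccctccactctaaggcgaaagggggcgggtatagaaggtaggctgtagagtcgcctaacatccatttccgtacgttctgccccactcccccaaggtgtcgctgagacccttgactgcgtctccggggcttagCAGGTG
CAGCTG occurred once in the Mef2a stretch, at base 164, and once in the Mef2d upstream stretch, at base 143, with the maximum at base 100 of both. CAGCTG was not among the letters of the other 5. The Mef2b stretch upstream of its outermost start and the Mef2d stretch at its start held no CANNTG at all. At the inner start of Mef2b and past the 3′ end of Mef2d, the full 200 bp window held 2 CANNTG. Only 1 of them is in the printed stretch, which leaves out annotated exons. In +dox replicate 3 the maximum of the Mef2d upstream region lay at 88138475, outside the printed stretch.

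Across the 6 lists, the libraries differed in ways that touch every count below. The no dox lists held 9389 to 13877 peaks and those of +dox replicates 1 and 2 held 12536 and 13260, but that of +dox replicate 3 held 53661. Depths recovered from the smallest step of the CPM values were 4297000 to 4667000 alignments for no dox, 2868000 and 3597000 for +dox replicates 1 and 2, and 8030000 for +dox replicate 3. The lowest total signal in a list, a peak's CPM coverage summed over its bases, was 837 to 904 in the 4 libraries numbered 1 and 2, but 354 in no dox replicate 3 and 336 in +dox replicate 3. A region with no peak was therefore not called, which is not the same as unbound. Heights are given as the percentile of a peak's maximum signal within its own list, with 100 the highest, and as that maximum in CPM.

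Core regions were no dox regions called in at least 2 of 3 no dox libraries, and Expanded regions were +dox regions called in at least 2 of 3 +dox libraries that overlapped no Core region. Of the 4 Mef2 loci, 3 held a Core region, against 35.5% of 21938 protein-coding loci, and 2 held an Expanded region, against 25.6%. Mef2d held 3 Core regions and 1 Expanded region, Mef2b held 2 and 2, Mef2a held 2 and 0, and Mef2c held neither. At least 3 Core regions were found at 4.40% of protein-coding loci, and at least 2 at 11.8%. The loci differ in length, with 162 kb for Mef2a, 47.8 kb for Mef2b, 183 kb for Mef2c and 49.7 kb for Mef2d, against a median of 37.4 kb. The 2 shorter of these 4 loci, Mef2b and Mef2d, both above that median, held 22 of the 25 regions. Just inside the 10 kb margin, 8947 bp upstream of Mef2d, lay a region called in +dox replicate 3 alone at percentile 31.8. Just outside it, 11.8 kb upstream of Mef2a, lay one called in all 6 libraries, and 13.9 kb downstream of Mef2b one with a peak in no dox replicate 3 (percentile 47.9) and in +dox replicates 2 and 3 (12.5 and 60.2).

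**Figure D1:**
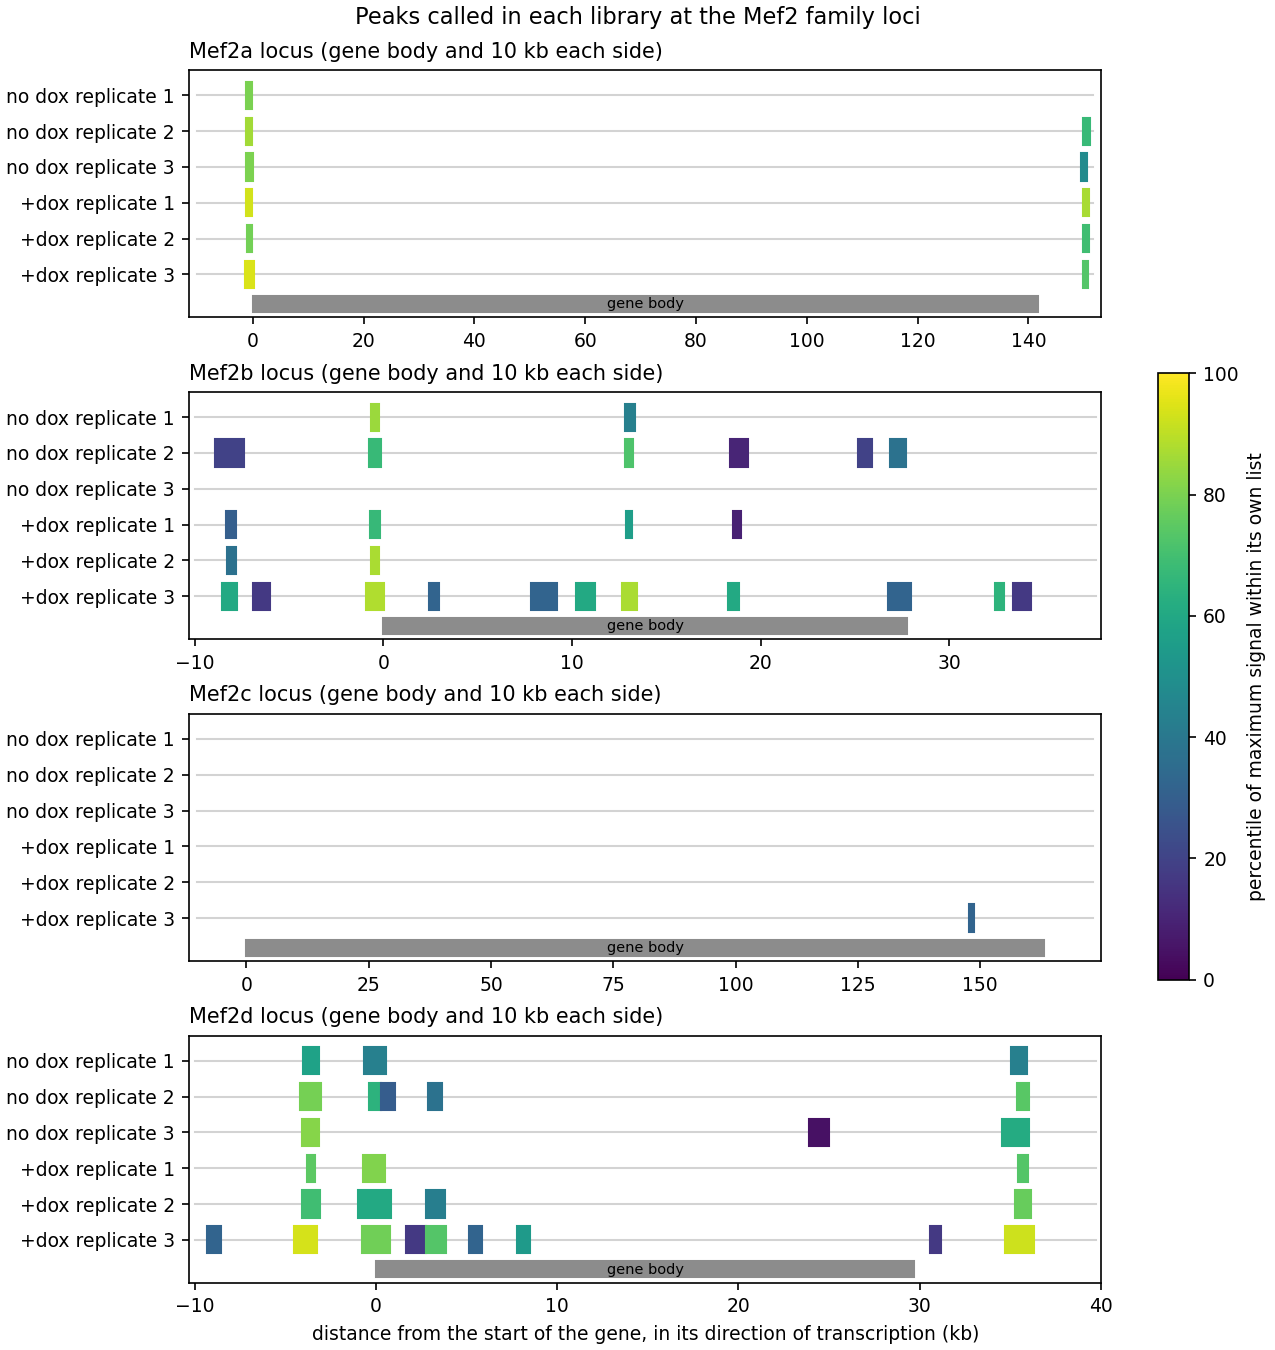
Each row is a library and each block a peak, placed by its distance in kb from the start of the gene and coloured by the percentile of its maximum signal, with the gene body as a grey bar. Mef2a had peaks at its start and past its far end alone, Mef2c had 1 peak in 1 library, and Mef2b and Mef2d had peaks at several positions, most of all in +dox replicate 3.

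At the 4 loci together, the no dox lists held 6, 13 and 5 peaks and the +dox lists 9, 8 and 23. The high value was again +dox replicate 3, and the groups overlapped with and without it. Of the 25 regions, 18 were called in more +dox than no dox libraries, 2 in more no dox libraries and 5 in as many, against 73.8% of all merged regions in more +dox libraries and 9.39% in more no dox libraries. Of the 11 Mef2 regions called in at least 2 libraries, 6 were called in more +dox libraries, against 39.6% of all such regions. No region was called in all 3 libraries of one group and none of the other, and 1.09% of all merged regions were called in 3 +dox and 0 no dox libraries.

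Of the 25 regions, 14 (56.0%) were called in a single library, against 67.8% of all merged regions. Of these 14, 12 came from +dox replicate 3, at percentiles of 16.7 to 64.6 and with 8 to 18 alignments at the maximum. Across the genome, 87.3% of single-library regions came from that library. In 11 of the 12 the total signal lay under 837, the smallest total signal that any list numbered 1 or 2 contained.

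Of the 2 members with a peak in every library, Mef2a had the more even counts. Its peaks numbered 1, 2 and 2 in no dox and 2 in each +dox library (difference of means 0.33, two-sided p = 1 by exact permutation of the libraries, adjusted p = 1 when corrected over all protein-coding loci with a peak). Both of its regions were Core, and its gene body of 141696 bp held no peak except where the start-side region reached into it. With 3 libraries against 3, the smallest p the exact test can give is 0.1.

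The Mef2a promoter-side region, chr7:67372651-67374300, was called in all 6 libraries, and its maximum lay 617 bp upstream of the annotated start in intergenic sequence. Its percentiles were 80.0, 86.0 and 80.3 in no dox and 93.1, 78.8 and 94.3 in +dox. The +dox replicates 1 and 3 were above every no dox library, and +dox replicate 2 was below all of them, so the groups overlapped. The difference of means was 6.65, 82.1 ± 3.36 (SD, n = 3) for no dox against 88.8 ± 8.65 (SD, n = 3) for +dox (exact permutation p = 0.4, adjusted p = 0.774 over 4838 regions).

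In CPM the same Mef2a maximum was 10.7, 12.2 and 6.43 in no dox and 43.9, 15.0 and 12.2 in +dox, from 46, 54 and 30 and from 126, 54 and 98 alignments. Here the groups did not overlap, as at 27.5% of the 4838 regions called in all 6 libraries, though +dox replicate 3 exceeded no dox replicate 2 only in the fourth digit, 12.204 against 12.193. The log2 difference was 1.09, or 2.12-fold (exact permutation p = 0.1, adjusted p = 0.364). Without +dox replicate 1, which held the highest value, the log2 difference was 0.52.

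The other Mef2a region, chr7:67222001-67223300, lay beyond the 3′ end of the gene. Its maximum was in an intron of 1700112J16Rik, 17 bp from a start of that gene and 121 bp from the start of Lysmd4, but 43687 bp from the nearest Mef2a start. It was called in 2 no dox libraries, at percentiles of 67.4 and 47.9, and in all 3 +dox libraries, at 86.8, 69.4 and 73.2. In percentile every +dox value was above the no dox values called. In CPM the no dox values were 6.32 and 3.00 and the +dox values 28.6, 11.1 and 2.99, so that +dox replicate 3 was below both. No dox replicate 1 had no peak there and no test was made.

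Mef2d carried the most Core regions of the 4. Its peaks numbered 3, 5 and 3 in no dox and 3, 4 and 9 in +dox (difference of means 1.67, exact permutation p = 0.7, adjusted p = 1). The value of 9 belonged to +dox replicate 3, and without that library the difference was -0.17. The highest peak at the locus stood at percentiles of 57.7, 79.1 and 82.0 in no dox and 81.0, 76.6 and 93.7 in +dox, a difference of 10.9 with overlapping groups (exact permutation p = 0.5, adjusted p = 0.752).

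The Mef2d upstream region, chr3:88137951-88139350, was intergenic, with its maximum 3597 bp before the start of the gene, and was called in all 6 libraries. Its percentiles were 57.7, 79.1 and 82.0 in no dox and 74.6, 69.4 and 93.7 in +dox. The lowest value was a no dox library and the highest a +dox library, but of the other 4 both +dox values, 74.6 and 69.4, were below both no dox values, 79.1 and 82.0. The difference was 6.37, 72.9 ± 13.3 (SD, n = 3) against 79.3 ± 12.8 (SD, n = 3), and the exact permutation p was 0.6 (adjusted p = 0.893).

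In CPM its maximum was 6.05, 9.03 and 6.86 in no dox and 16.7, 11.1 and 11.2 in +dox, with every +dox library above every no dox library. The log2 difference was 0.83, or 1.77-fold (exact permutation p = 0.1, adjusted p = 0.364). This stretch held the CAGCTG at base 143 and 2 further E-boxes.

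The start of Mef2d was covered by chr3:88141751-88143700, with its maximum 72 bp upstream of the annotated start. It was called in 2 no dox libraries, at percentiles of 43.0 and 64.3, and in the 3 +dox libraries, at 81.0, 60.5 and 78.5. In CPM the no dox values were 4.65 and 5.87 and the +dox values 21.6, 8.90 and 3.74. The order of the groups was therefore not the same on the 2 scales: +dox replicate 3 was below both called no dox libraries in CPM and above them in percentile.

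Inside Mef2d, the Expanded region chr3:88145201-88146350 had its maximum 3.30 kb inside the gene, in an intron. It was called in no dox replicate 2, at percentile 37.5, and in +dox replicates 2 and 3, at 42.4 and 73.2, while its CPM values were 3.61 in no dox and 6.12 and 2.99 in +dox. Its window of 200 bp around the maximum held no CAGCTG but 1 TGANTCA, the motif of AP-1, a Fos and Jun dimer.

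Past the 3′ end of Mef2d, chr3:88177001-88178650 was called in all 6 libraries. Its maximum, a middle value over the libraries, was intergenic, 90 bp from a start of the gene 1700113A16Rik. It was 35.3 kb from the nearest Mef2d start. In no dox replicate 2 and +dox replicates 1 and 2 the maximum lay at 88178075, outside the printed stretch. That of no dox replicate 3, at 88177675, was also outside. The percentiles were 43.0, 74.2 and 61.2 in no dox and 73.4, 76.6 and 92.3 in +dox. Only no dox replicate 2 reached into the +dox range. The difference was 21.3, 59.4 ± 15.7 (SD, n = 3) against 80.7 ± 10.1 (SD, n = 3), with an exact permutation p of 0.2 and an adjusted p of 0.561.

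Its CPM values were 4.65, 7.68 and 3.86 in no dox and 16.0, 13.9 and 9.46 in +dox, which did not overlap. The log2 difference was 1.31, or 2.48-fold (exact permutation p = 0.1, adjusted p = 0.364). The remaining 6 Mef2d regions were each called in 1 library, 5 of them in +dox replicate 3, and the sixth, in no dox replicate 3, at percentile 4.47.

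**Figure D2:**
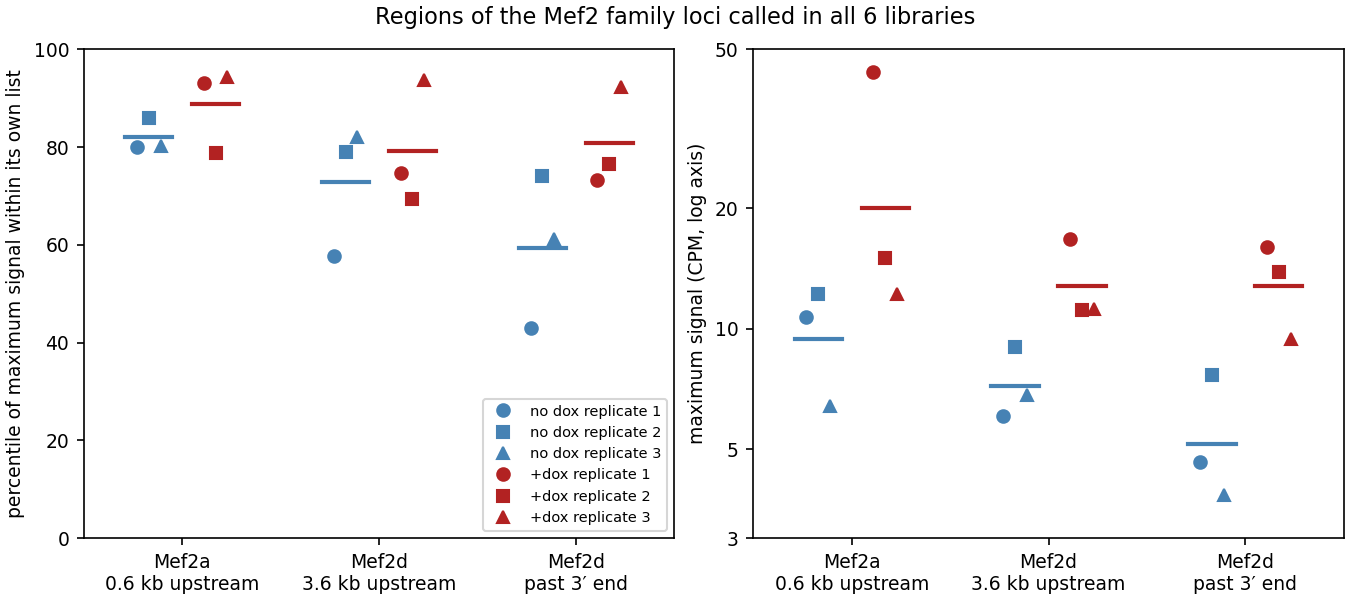
Points are the 3 no dox and 3 +dox libraries at the 3 Mef2 regions called in all 6 lists, as percentile within the own list (left) and as maximum CPM on a log axis (right), and lines are group means, taken on the log scale for CPM. The groups overlapped at all 3 regions in percentile and at none in CPM.

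Set against the rest of the genome, these 3 regions had differences inside the range of other regions called in all 6 libraries. In percentile, 0 of the 3 had every +dox library above every no dox library, against 23.7% of the 4838 such regions, and none was wholly below, against 0.0413%. In CPM, 3 of 3 were wholly above, against 27.5%, and 96.1% of all such regions had the higher mean in +dox. The median of all 4838 was 6.40 in percentile and 0.91 in log2 CPM, or 1.88-fold.

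Relative to that common shift, the log2 CPM difference was 0.18 at Mef2a, -0.08 at the Mef2d upstream region and 0.40 at the region past the Mef2d 3′ end. The percentile differences stood 0.25 above, at -0.03 from and 14.9 above the median. The difference at the Mef2d 3′ region exceeded 86.0% of all differences in percentile and 81.6% in CPM. On the percentile of total signal in place of maximum signal, the difference was 8.70 at the Mef2d 3′ region (exact permutation p = 0.4) and 2.79 at the Mef2d upstream region (exact permutation p = 0.9). At Mef2a the figures for maximum signal were 50.9% and 64.7%, and at the Mef2d upstream region 49.8% and 43.0%.

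**Figure D3:**
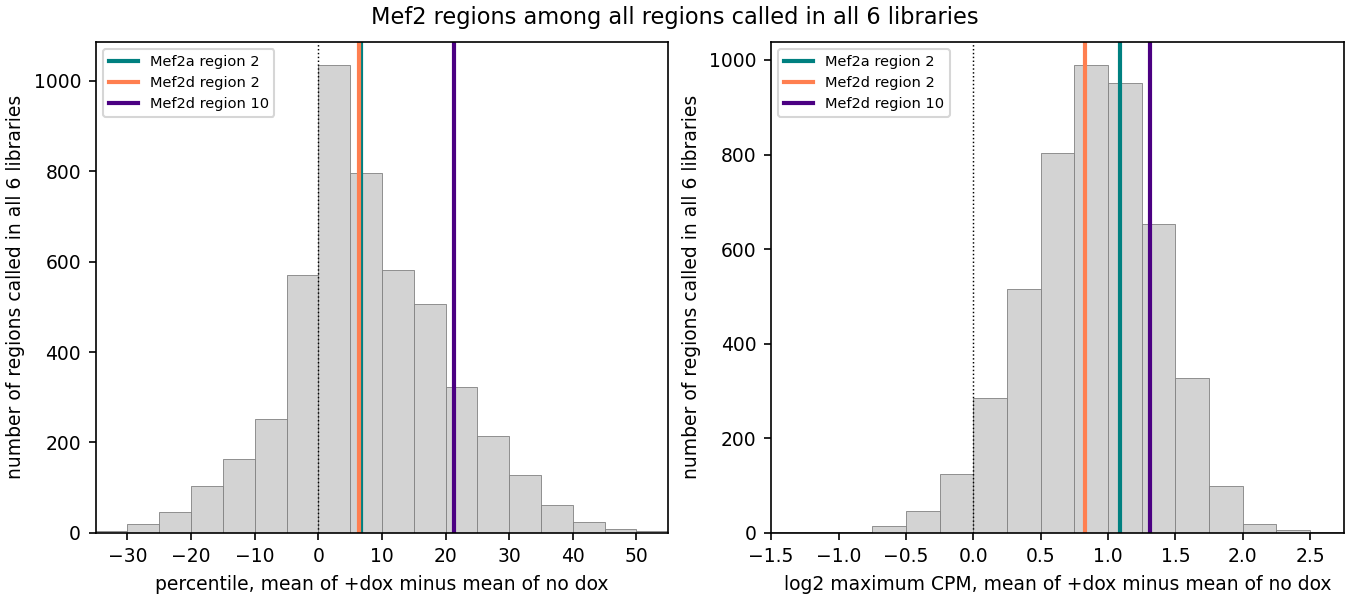
Grey bars count the 4838 regions called in all 6 libraries by the difference of group means (+dox minus no dox) in percentile (left) and in log2 maximum CPM (right), and coloured lines mark the 3 Mef2 regions. The lines of Mef2a and the Mef2d upstream region (Mef2d region 2) fall near the middle of each distribution, and Mef2d region 10, past the 3′ end, lies to its right at 21.3 and 1.31.

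The long list of +dox replicate 3 sets part of the percentile scale. The median percentile of the 4838 regions was 70.2, 80.4 and 76.1 in no dox and 75.8, 78.8 and 93.5 in +dox. The Mef2a region stood above that median in 5 libraries and at it in +dox replicate 2. The Mef2d upstream region stood above it in the 2 libraries numbered 3 and below it in the other 4. With every list shortened to its 9389 strongest peaks, the percentile difference was -0.88 at Mef2a and -4.62 at the Mef2d upstream region, and 12.6 at the Mef2d 3′ region.

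Mef2b had the most regions and the least even calls. Its peaks numbered 2, 6 and 0 in no dox and 4, 2 and 11 in +dox (difference of means 3.00, exact permutation p = 0.6, adjusted p = 1). No dox replicate 3 had no peak anywhere in the 47.8 kb, and +dox replicate 3 had the most, so that the difference without +dox replicate 3 was 0.33. The highest Mef2b peak stood at percentiles of 84.8 and 72.2 in no dox and 67.2, 87.4 and 87.9 in +dox, and the groups overlapped.

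The highest of the Mef2b regions, chr8:70139001-70139950, was Core, called in no dox replicates 1 and 2 and in all 3 +dox libraries. The maximum was 121 bp from the start of Rfxank, which encodes a subunit of the RFX complex at MHC class II genes, and 436 bp upstream of the outermost Mef2b start. Its percentiles were 84.8 and 67.4 in no dox and 67.2, 87.4 and 87.9 in +dox, and its CPM values were 13.0 and 6.32 and 13.2, 22.8 and 6.48. The no dox values lay within or close to the +dox range on both scales.

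The inner start of Mef2b lay 28 bp from the maximum of the Core region chr8:70152351-70153150, and 4 of the 5 annotated transcripts begin within 50 bp of that maximum. It was called in no dox replicates 1 and 2, at percentiles of 43.0 and 72.2, and in +dox replicates 1 and 3, at 55.8 and 87.4. The 4 values interleaved, and the 2 libraries without a call were 1 of each group.

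Both Expanded regions of Mef2b were low in most lists. One, chr8:70130801-70132350, spanned an exon of Nr2c2ap, which encodes a partner of an orphan nuclear receptor, and a UTR of Rfxank. Its maximum lay 228 bp from a start of Nr2c2ap and 8136 bp from the nearest Mef2b start. This region was called in no dox replicate 2, at percentile 19.7, and in the 3 +dox libraries, at 29.7, 37.4 and 60.2. The other, chr8:70157951-70159000, was intronic in Mef2b and was called in no dox replicate 2, at 10.4, and in +dox replicates 1 and 3, at 9.05 and 60.2. Both had a no dox call, with 12 and 10 alignments at the maximum. In CPM those no dox values, 2.71 and 2.26, were above that of +dox replicate 3, 1.99 at both regions.

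The other 8 Mef2b regions included 7 called in a single library and 1 called in no dox replicate 2 and +dox replicate 3. Of the 7, 6 came from +dox replicate 3. An intronic one among them, chr8:70147051-70148400, had 2 CAGCTG within 200 bp around its maximum, but its maximum rested on 10 alignments, 1.25 CPM, at percentile 31.8.

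Mef2c had almost no calls. None of the 3 no dox libraries and 1 of the 3 +dox libraries had a peak in its 183 kb (difference of means 0.33, exact permutation p = 1, adjusted p = 1). That peak, chr13:83651851-83652450, lay in an intron, 663 bp from an annotated Mef2c start and 148 kb inside the gene. It had 10 alignments at its maximum, 1.25 CPM and percentile 31.8 in +dox replicate 3, and its total signal of 436 was under the lowest value in each list numbered 1 or 2.

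No Core region lay at Mef2c, whereas 44.4% of the 1305 protein-coding loci at least as long held one, and 28.2% of all protein-coding loci had no peak in any library. With 1 gene, no test of this contrast was possible. The nearest peaks beyond the locus were 614 to 681 kb downstream in the no dox lists and 48.2 to 63.8 kb downstream in the +dox lists.

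In number of peaks, 0 of the 4 loci had every +dox library above every no dox library, against 4.29% of the 15749 protein-coding loci with a peak. By the highest peak, Mef2a and Mef2d, the members with a peak in all 6 libraries, had overlapping groups, against 27.5% of 5430 such loci wholly higher in +dox. The median difference in highest percentile over those loci was 8.53, beside 6.65 for Mef2a and 10.9 for Mef2d. Both values moved with the choice of locus and list. That of Mef2a was 0.27 with a margin of 25 kb, 2.95 in replicates 1 and 2 and -0.88 with lists of equal length. That of Mef2d was 36.1 in the gene body alone, 1.57 with lists of equal length and 3.25 without no dox replicate 1.

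The loci with highest-peak percentiles most like those of Mef2a over the 6 libraries were Glo1, an enzyme that detoxifies methylglyoxal, Desi2 and Dap, with mean absolute differences of 1.33, 1.87 and 1.90 percentile points. For Mef2d they were Herpud1, an endoplasmic reticulum stress protein, Stat6, a cytokine signal transducer, and 5430419D17Rik, at 2.02, 2.40 and 2.71. The likeness was taken over 5427 loci with a peak in all 6 libraries and says only that the heights ran alike.

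The share of Mef2 regions with an E-box is given beside that of all regions, as a description. CAGCTG lay within 200 bp around the maximum of 6 of the 25 regions and 3 of the 7 Core regions, against 29.6% of all 58309 merged regions. CANNTG lay in 17 of the 25 windows and in 5 of the 7 Core windows, against 74.1%. The AP-1 motif TGANTCA lay in 2 of the 25 windows, against 12.5%, and the Mef2 motif in none, against 1.05%. These shares are of all merged regions, 67.8% of which were called in a single library. The share among all Core regions, the like set for the 7, was not computed. All 4 patterns read alike on both strands, and each CAGCTG is also a CANNTG.

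Over whole regions, which are longer, CAGCTG lay in 16 of the 25 and in 6 of the 7 Core regions, against 60.7% of all merged regions. Here too, no share among all Core regions was computed. The Mef2 motif lay in 3 of the 25 whole regions, against 7.66%. One of these was the Mef2a region 617 bp upstream of the start. The others were regions of Mef2b and Mef2d called in +dox replicate 3 alone.

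Of 22 other genes of the Mef2 pathway, each with the same margin, 15 held a Core region, 10 held an Expanded region and 13 had a peak in all 6 libraries. These were 68.2% and 45.5% of the list with a Core or an Expanded region, against 35.5% and 25.6% of all protein-coding loci, and 24.8% of those loci had a peak in all 6. The list was not tested as a set and was not matched for length. Its loci ran from 22.6 kb for Myog to 890 kb for Hdac9, against a median of 37.4 kb for all protein-coding loci. Of the protein-coding loci at least as long as that of Mef2c, 44.4% held a Core region. No gene could have an exact permutation p under 0.05 in number of peaks, since 0.1 was the smallest possible. Cabin1 alone reached 0.1 by that test, with 2, 2 and 2 peaks in no dox and 4, 3 and 8 in +dox. Every +dox library was there above every no dox library in peaks, as at 4.29% of protein-coding loci with a peak. By highest percentile, 12 of the 13 had the higher mean in +dox, with a median difference of 7.15, near the 8.53 of all such loci. At 3 of the 13, Hdac7, Mapk7 and Ep300, every +dox library was above every no dox library, beside the 27.5% of all loci.

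Among repressors and signal inputs, 7 of 10 held a Core region, beside the 35.5% of all loci. Over all protein-coding loci of any length, at least 3, 4 and 7 Core regions were found at 4.40%, 1.89% and 0.255%. Hdac4, a class IIa deacetylase that binds Mef2 proteins, held 4 Core regions in a locus of 287 kb. It stood at percentiles of 97.0, 97.1 and 91.2 in no dox and 96.9, 97.2 and 97.4 in +dox. Hdac7, of the same class, held 7 Core regions. Hdac5, another member, held 3 Core and 5 Expanded regions and stood between 53.3 and 87.1 in no dox and between 71.1 and 93.9 in +dox, below Mef2a in 5 of 6 libraries. Mapk7, the kinase ERK5 that activates Mef2 proteins, was between 95.4 and 98.8 in every library. Hdac4, Hdac7 and Mapk7 were higher than every Mef2 locus in each library and Hdac5 was not, and Hdac9, also a class IIa deacetylase, and Prkd1, a kinase that drives them out of the nucleus, had no peak in any library.

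Of the coactivators, 3 of 5 held a Core region, beside the 35.5% of all loci. Ep300, a histone acetyltransferase, stood at 48.5, 37.5 and 55.3 in no dox and 73.4, 63.2 and 84.0 in +dox (difference 26.4, exact permutation p = 0.1, adjusted p = 0.364). Myocd, the myocardin coactivator of smooth and cardiac muscle, and Ncoa2 held an Expanded region and no Core region, with calls in 1 no dox and 3 +dox libraries.

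Of the target genes, 5 of 7 held a Core region, beside the 35.5% of all loci. Des, the muscle intermediate filament desmin, stood between 84.8 and 97.5 in all 6 libraries. Ckm, the muscle creatine kinase, had no peak in no dox and peaks in +dox replicates 1 and 3, at 16.0 and 64.6. Myog, the myogenin gene, had peaks in all 3 no dox libraries, at 29.3, 99.9 and 47.9, and in +dox replicate 3 alone, at 54.0.

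**Figure D4:**
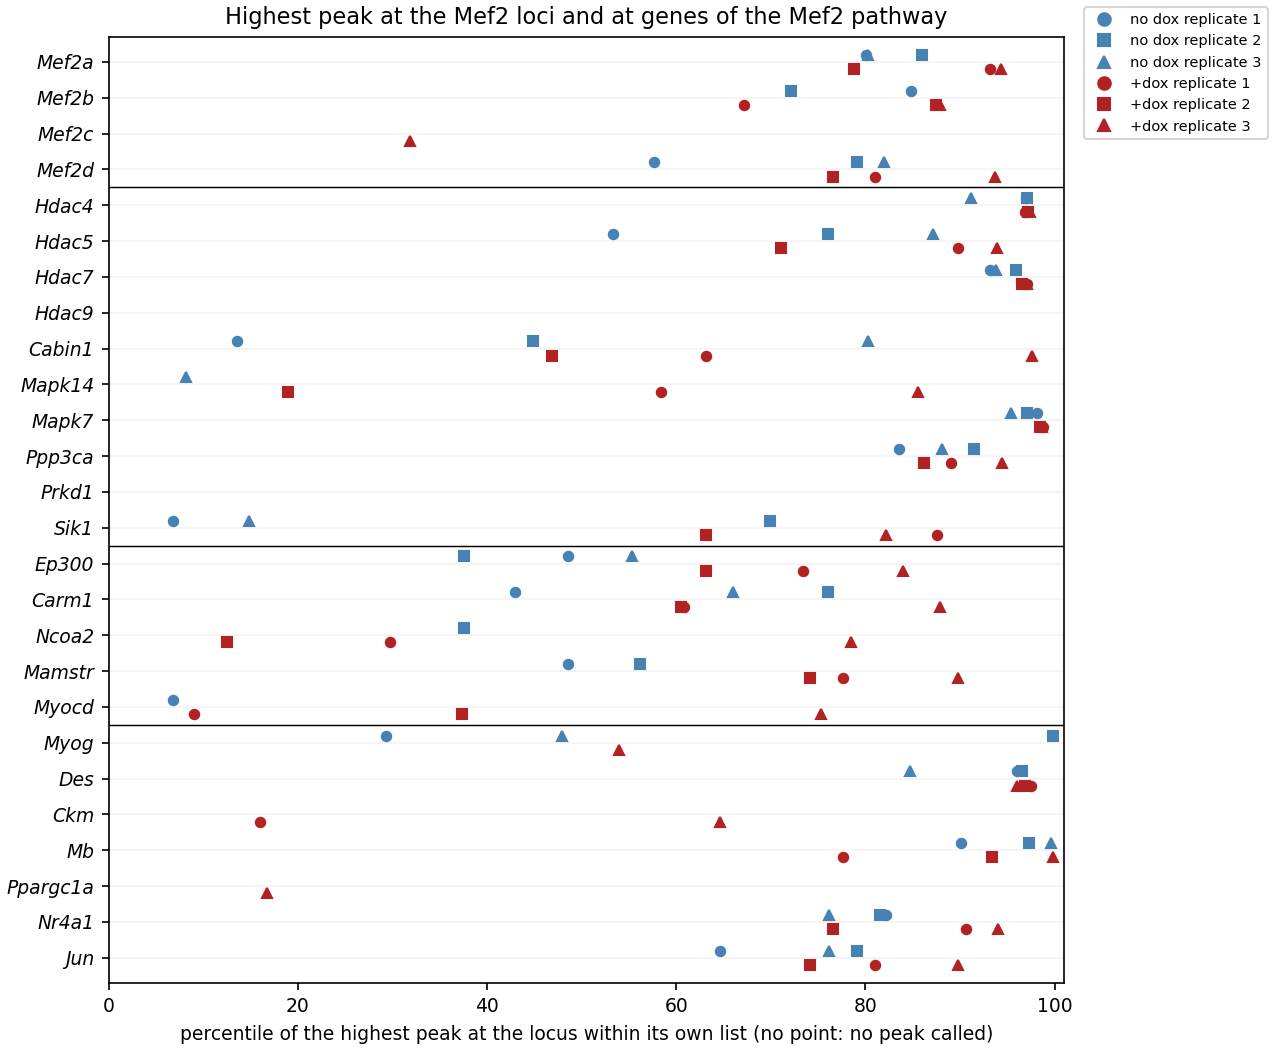
Each point is the highest peak of a library at a locus, by its percentile within the own list, for the 4 Mef2 genes and 22 pathway genes grouped as repressors and signal inputs, coactivators and target genes. Mef2c shows 1 point, at 31.8, and Hdac9 and Prkd1 show none, while Hdac4, Hdac7 and Mapk7 lie above 91 in every library.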

How the data were processed

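CUT and RUN reads of 6 libraries (3 no dox, 3 +dox) were processed by the authors with nf-core/cutandrun 3.2.2 on mm10, with blacklist v2, CPM normalisation and SEACR relaxed peaks per library. The deposited lists give each peak's total and maximum signal in CPM per base; the aligner is not given in the sources used here. The members and gene lists were chosen with earlier results of these data known.

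Peaks were assigned to GENCODE vM21 loci by 1 bp overlap, and sequence came from GRCm38.p6 (mm10), where 0 regions passed a chromosome end. The steps of maximum signal were whole alignments (tolerance 0.05) in 100% of peaks, and 94.8 to 99.2% of counts were even, so alignments are not independent fragments. Groups were compared by exact two-sided permutation over 20 assignments, with Benjamini-Hochberg adjustment over all loci or regions tested, not over the 4 loci as first planned. Same-numbered replicates were not taken as pairs. P-values are the share of these assignments with a difference at least as large as that seen, for 3 and 3 cultures of 1 line. Scripts ran in Python 3.11.15 with NumPy 2.4.6, pandas 2.3.3 and SciPy 1.17.1, and were tested on simulated lists. Alternatives are given in the closing section. Wild-type libraries were not analysed here. The pathway genes, likeness rule and sequences followed a written rule, to which the sequences at the own starts and the Mef2d 3′ region were added after values were seen.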

Additional observations from a re-analysis of the deposited data

How the results depend on the processing

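Of 260 recomputed values, 207 kept their direction and their side of the threshold (a region count was held to within 1.5 times), 45 did not and a further 8 changed sign, and none of the permutation tests reached 0.05, which their size does not allow. Peak counts depended on +dox replicate 3: leaving out each library in turn gave differences of 0 to 0.50 for Mef2a, 0.33 to 4.83 for Mef2b, 0 to 0.50 for Mef2c and -0.17 (without +dox replicate 3) to 2.83 for Mef2d. Replicates 1 and 2 alone gave -1 for Mef2b, -0.50 for Mef2d and 0 for Mef2c. Lists of equal length gave 0 for Mef2a, Mef2c and Mef2d, a shared total signal threshold of 904 gave 0 for Mef2b, Mef2c and Mef2d, peaks above each list's median maximum gave 0 for Mef2c, and the gene body alone gave 0 for Mef2a. Leave-one-out Core counts were 1 to 2 for Mef2a, 0 to 2 for Mef2b, 0 for Mef2c and 2 to 3 for Mef2d, and Expanded counts 0 to 1, 1 to 4, 0 and 0 to 2. The Mef2b Core count was 0 without no dox replicate 1 or 2, and the Mef2a count 1 without no dox replicate 2 or 3. Mef2a had 1 Core region under the gene body alone, peaks above the median, replicates 1 and 2 or calls in 3 of 3 libraries, and 1 Expanded region under the last 3. Mef2b had 1 Core region above the median and 0 under 3 of 3. Mef2d had 1 Core region in the gene body alone. Mef2b had 1 Expanded region under the gene body, equal length, shared threshold, peaks above the median and replicates 1 and 2, and 0 where no no dox peak could overlap. Mef2d had 0 Expanded regions under equal length, replicates 1 and 2, merging within 500 bp and where no no dox peak could overlap. Lists of equal length turned the percentile difference at Mef2a to -0.88 and at the Mef2d upstream region to -4.62. The latter was -1.25 without no dox replicate 1 and -0.87 without +dox replicate 3, within a leave-one-out range of -1.25 to 11.3. The ranges were 3.86 to 11.6 for Mef2a, 13.1 to 28.7 for the Mef2d 3′ region, 3.25 to 15.4 for the highest Mef2d peak, and in log2 CPM 0.52 to 1.45 for Mef2a, 1.10 to 1.60 for the Mef2d 3′ region and 0.63 to 0.99 for the Mef2d upstream region. The alternatives for log2 CPM other than the planned scale, and equal length at regions, were chosen after seeing the data. With the replicate number as a block, the differences were the same and the exact sign-flip p was 0.25 to 1, with 0.25 the smallest possible; deviations of same-numbered libraries correlated at 0.37, -0.010 and 0.49. Some that kept their direction still moved by over 1.5 times: on the percentile of total signal the differences were 8.70 for the Mef2d 3′ region, 2.79 for the Mef2d upstream region and 5.88 for the highest Mef2d peak. The cause of these changes was not tested. An absent call says least in the 4 lists numbered 1 and 2, whose lowest total signal was highest.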

Other observations

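Beyond the 10 kb margin, the flanks of the 4 loci were also examined to 100 kb further on each side. This search and the regions named from it were chosen after the values were seen. Over the genome, 9560 Core regions stood beside 58309 merged regions, of which 4838 were called in all 6 libraries. The flanks of Mef2a held 11 regions, 4 of them Core and all 4 called in the 6 libraries, 11.8, 70.0, 86.3 and 88.7 kb upstream of the gene. The nearest, chr7:67384701-67386150, stood at percentiles of 89.7, 93.0 and 99.3 in no dox and 85.4, 90.1 and 99.5 in +dox. The region at the Mef2a start was at 80.0, 86.0 and 80.3 and at 93.1, 78.8 and 94.3, so that the upstream region was the higher in 5 of 6 libraries, all but +dox replicate 1.

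Farther out, chr7:67477601-67478450, 105 kb upstream of Mef2a, was called in 3 +dox libraries, at percentiles of 35.5, 31.9 and 75.3, and in 0 no dox libraries. Its maxima rested on 18, 18 and 26 alignments. Regions called in 3 +dox and 0 no dox libraries numbered 634, or 1.09% of all merged regions, against 5 called in 3 no dox and 0 +dox libraries. The 200 bp around its maximum on the mm10 plus strand, shown for its 2 CAGCTG, in capitals, read as follows.
Mef2a, 105 kb upstream, chr7:67478076-67478275: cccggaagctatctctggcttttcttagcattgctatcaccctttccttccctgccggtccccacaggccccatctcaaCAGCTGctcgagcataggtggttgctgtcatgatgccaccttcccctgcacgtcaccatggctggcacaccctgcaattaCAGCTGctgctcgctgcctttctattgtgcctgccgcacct

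Mef2c had 3 regions in its flanks, all downstream. One, chr13:83729451-83731600, 62.4 kb past the 3′ end and in an intron of the non-coding gene C130071C03Rik, was called in 3 +dox libraries, at percentiles of 49.3, 25.7 and 60.2, and in 0 no dox libraries. Its maxima were 8.37, 4.45 and 1.99 CPM, from 24, 16 and 16 alignments. The 200 bp around its maximum held no CANNTG. The flanks of Mef2b held 17 regions, 2 of them Core, and those of Mef2d held 10, none of them Core, and at both genes 0 were called in 3 +dox and 0 no dox libraries. Which gene these flanking regions act on was not measured.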
